A study of Mus musculus with 9 samples.

Results

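The kidneys of 2 lines of knock-in mice were compared that differ in the amino acid put in place of the same cysteine of NF-kB1. RNA sequencing gave 3 libraries of the allele C59A (cysteine 59 to alanine, labelled activated) and 3 of C59S (cysteine 59 to serine, labelled inactivated), 6 of the 9 libraries of the series. The other 3 are wild type (WT) and are given beside the values. Members of the comparison were all genes on chromosomes 1 to 19, 48329 of the 52636 genes counted, of which 16540 had enough reads to be tested. Both alleles were made, per the labels, by targeting a C57BL/6NTac-derived embryonic stem cell line, and both carry a PGK-neo selection cassette in an intron near the mutated exon. The labels name whole kidney and no age, sex, treatment, litter, zygosity or number of clones. They call C59A activated and C59S inactivated, but their sentence on DNA binding lists the reverse order and names only alanine for the new codons, so no direction of NF-kB activity was assumed.

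Nfkb1 encodes a precursor that is cut to p50, a DNA-binding subunit of the NF-kB transcription factors. A p50 dimer lacks an activation domain, and with RelA it forms the heterodimer that inflammatory signals release from IkB proteins. The cysteine lies in the loop that touches DNA, where its oxidation state is known to alter binding. The codon was located in the GENCODE M21 annotation of GRCm38 and is shown because it is the designed difference between the lines. It is TGT in exon 6 of a coding transcript of 25 exons, on the minus strand at chr3:135655572-135655574, as the labels give it. Per the labels it became GCT or TCA. The reference coding sequence around it is printed with the codon in capitals.
Nfkb1 codon 59: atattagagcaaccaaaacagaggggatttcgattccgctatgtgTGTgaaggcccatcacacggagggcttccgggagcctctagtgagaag

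Total counts ran from 16367403 to 23744707 in C59A and from 18603933 to 25787659 in C59S. Libraries are named by group and replicate number of the titles, and levels are CPM, the reads of a gene relative to the TMM-scaled library total. The groups stood apart in sex-linked RNA. Ddx3y of the Y chromosome had 776, 763 and 971 reads in C59A and 3, 0 and 12 in C59S, whereas Xist, which coats the silenced X in females, had 12, 6 and 4 reads in C59A and 23875, 19612 and 13268 in C59S. Every C59A library thus had the reads of male kidneys and every C59S library those of female kidneys, so allele and sex cannot be told apart in any value below. The WT libraries also had the reads of female kidneys, with 29644, 25368 and 17108 of Xist and 0, 0 and 2 of Ddx3y. Where C59A lies apart from WT below, allele and sex cannot be told apart either. Fat transcripts differed too. The adipokine gene Adipoq had 67, 3 and 331 reads in C59A and 6, 937 and 590 in C59S, and the adipocyte protease gene Cfd had 429, 4 and 1440 in C59A and 60, 3494 and 6355 in C59S. C59S replicates 2 and 3 were the highest in both genes, C59A replicates 1 and 3 carried them too, and WT had at most 1 read of Adipoq and 12 of Cfd. Over the list of 30 adipocyte genes the summed level was 1519.6 to 2095 CPM in C59A, 1399 to 2958 CPM in C59S and 919.6 to 1239 CPM in WT, and the lipid droplet gene Plin1 had 0 reads in C59A replicate 2. Mitochondrial genes took 20.8% to 28.8% of the counts in C59A and 20.5% to 40.6% in C59S, highest in C59S replicate 3. Whether the replicates came from different animals is not stated, and every p-value below therefore reflects library-to-library spread, which may be technical.

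**Figure D1:**
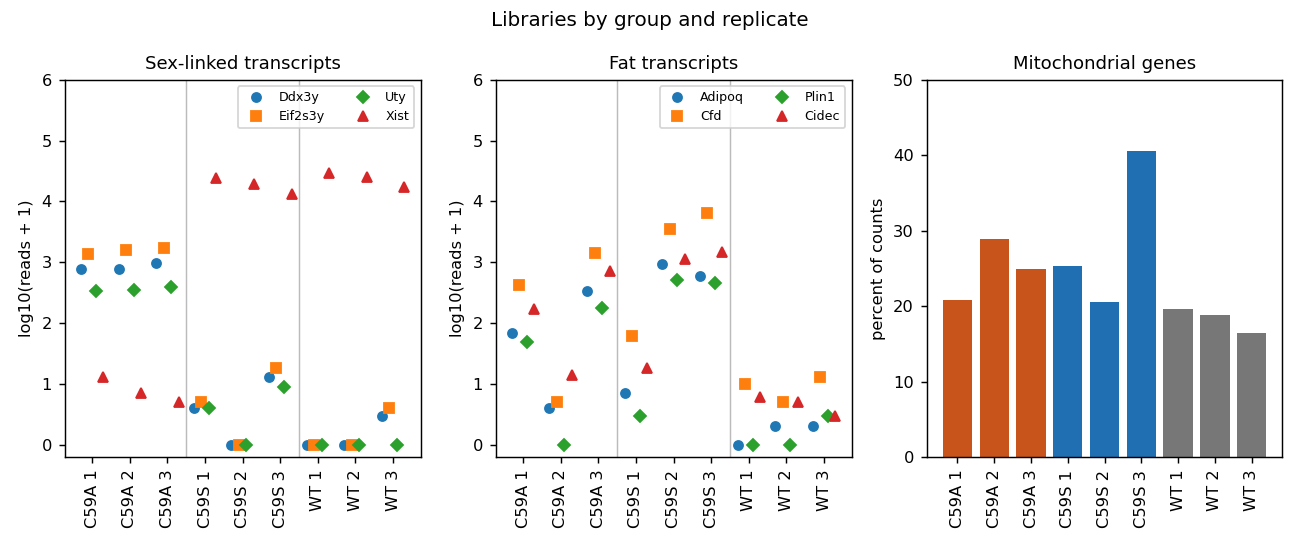
Reads of 4 sex-linked and 4 fat transcripts on a log10(reads + 1) scale, and the percent of counts from mitochondrial genes, in each of the 9 libraries. Y-linked reads are high in the 3 C59A libraries, Xist in the other 6, and fat reads are highest in C59S replicates 2 and 3 but also present in C59A replicates 1 and 3.

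Between C59A and C59S, 976 of the 16540 autosomal genes, 5.9%, had a Benjamini-Hochberg adjusted p under 0.05 in the quasi-likelihood test of edgeR and are referred to as called. In C59A 560 of them were higher (3.39% of those tested) and 416 lower (2.52%), and 240 and 190 of these differed by at least 2-fold. The median log2 fold change of all genes tested, C59A minus C59S, was -0.0062. All later differences are on that log2 scale, given ± SE. This SE is the size of the difference over the square root of the F statistic of the edgeR test, and was not estimated separately. Where a group had almost no reads it is only a rough guide. All libraries of one group lay above all of the other for 4846 genes, 29.3% of those tested, and for 975 of the 976 called. Scaling by library totals alone gave 643 calls, 47.4% of them higher in place of 57.4%. The count rested on single libraries, falling to 304 without C59S replicate 3, 355 without C59A replicate 1, 388 without C59A replicate 3 and 416 without C59S replicate 2. Without both C59S replicates 2 and 3, which leaves 1 C59S library assumed to vary like the rest, 117 of 18040 genes passed (0.649%), and 108 of them were among the 976. With the summed adipocyte list as a covariate 545 genes passed, and with the mitochondrial share 497. The summed list follows fat only in part, here and wherever this covariate is used below. C59A replicate 2, with 3 reads of Adipoq and 0 of Plin1, had a sum of 1519.6 CPM, of which Lpl gave 750. C59A replicate 1, with 67 and 48 reads of these genes, had a sum of 1544 CPM. Calls that held on leaving out each of the 9 libraries in turn numbered 172 higher and 68 lower.

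**Figure D2:**
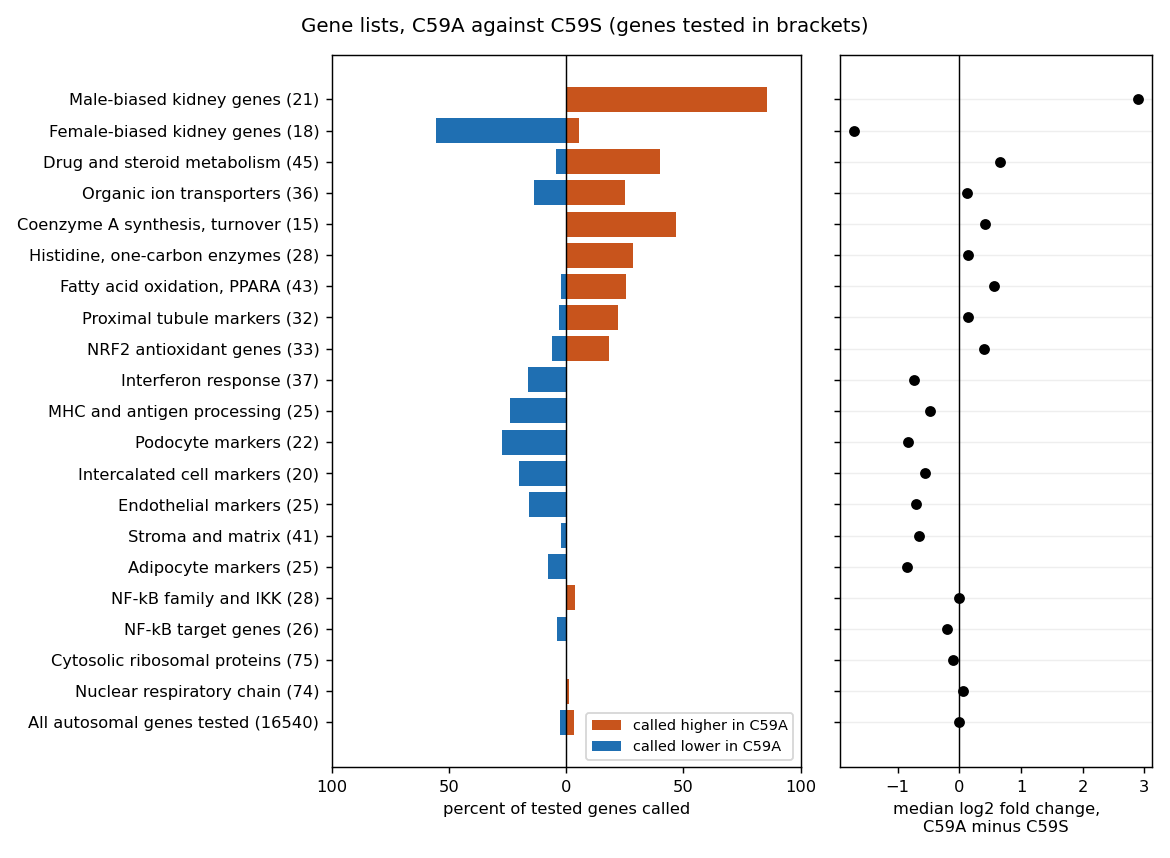
Left, percent of the tested genes of 20 lists called higher (orange) or lower (blue) in C59A than in C59S, and right, the median log2 fold change of each list. Sex-biased genes and metabolic enzymes of the proximal tubule have the largest shares, against 3.39% and 2.52% over all autosomal genes in the bottom bar.

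The largest median difference lay in genes that proximal tubule cells of mice express according to sex hormones. Such tubule cells carry androgen receptors, and testosterone is known to raise a set of transporters and cytochrome P450 enzymes there. Of 21 genes listed as male-biased, all tested, 18 were higher in C59A and 0 lower, against 3.39% and 2.52% of all autosomal genes. The median log2 fold change was 2.90. Of these 18 calls 16 held on leaving out any of the 9 libraries, and 11 genes of the list passed without C59S replicates 2 and 3 and 17 with the adipocyte covariate. Since all C59A libraries carry Y-linked reads, sex and allele cannot be told apart in these values.

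Slc7a13, an amino acid carrier of late proximal segments (chromosome 4, 19818725 to 19842218, GRCm38), was read at 527, 502 and 453 CPM in C59A and 1.12, 0.541 and 1.15 CPM in C59S, and WT lay at 1.01, 1.36 and 2.81. Its log2 fold change of 9.05 ± 0.39 (SE, edgeR adjusted p = 9.02e-07) was the largest of the list and still 8.78 without C59S replicates 2 and 3. Slco1a1, an organic anion carrier, was read at 68.9, 50.1 and 71.4 CPM in C59A and 0.0746, 0 and 0.607 CPM in C59S. The C59S libraries were near the limit of detection for Slco1a1, which at 3 reads is 0.112 to 0.202 CPM, and the log2 fold change was 8.44 ± 0.54. Cyp2j13, a cytochrome P450 of the arachidonic acid epoxygenase family, went from 0.895, 0.0902 and 0.54 CPM in C59S to 117, 57.5 and 129 in C59A. Cyp7b1, the oxysterol 7-alpha-hydroxylase, was read at 123, 216 and 98.7 CPM in C59A and 3.62, 2.44 and 1.55 CPM in C59S, with WT at 1.43, 0.855 and 2.67. Acsm3, a medium-chain acyl-CoA synthetase, was read at 38.4, 40.7 and 47.3 CPM in C59A and 0.0373, 0.632 and 0.945 CPM in C59S. In these 5 genes every C59A library lay far above every C59S and WT library. Cyp4a12a (5.66 ± 0.67) and Cyp4a12b (3.8 ± 0.43), which make the vasoconstrictor 20-HETE in male mice, were also higher, but they are close copies that may share reads, and so may Slc22a28 (2.57 ± 0.15) and Slc22a30 (4.25 ± 0.34), organic anion transporters of one cluster on chromosome 19.

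Other male-biased genes differed by less than these 5. Kap, the androgen-regulated kidney protein, was read at 26056, 37535 and 33193 CPM in C59A and 13659.9, 6855 and 6249 CPM in C59S, the highest of the listed genes in both groups. Its call (1.85 ± 0.43, edgeR adjusted p = 0.0309) was lost without C59A replicate 1, 2 or 3 or C59S replicate 2 or 3 (edgeR adjusted p = 0.0584 to 0.121). Cyp2e1, the ethanol-inducible P450, was read at 914, 417 and 1174 CPM in C59A and 34.7, 103 and 109 CPM in C59S, so its C59A libraries were spread but all above C59S. Slc22a12, the urate transporter URAT1, was read at 1244, 704 and 1311 CPM in C59A and 283, 468 and 278 CPM in C59S and was higher by 1.66 ± 0.27. Odc1, the first enzyme of polyamine synthesis, was higher by 1.13 ± 0.24, a call lost without C59A replicate 1 or 3 or C59S replicate 1 or 3 (edgeR adjusted p = 0.0592 to 0.0798). Akr1c21 (0.86 ± 0.25, edgeR adjusted p = 0.0724), Tmem252 (0.71) and Serpina1f (0.05) did not pass.

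**Figure D3:**
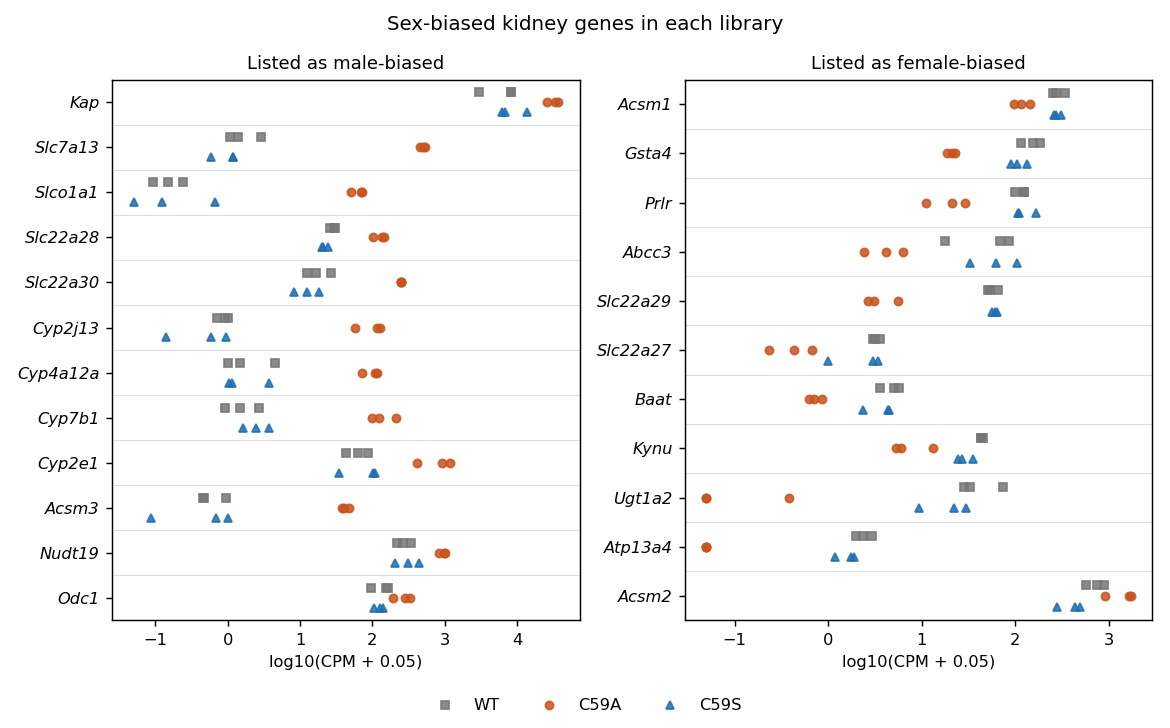
Levels of 12 genes listed as male-biased and 11 listed as female-biased in each library, on a log10(CPM + 0.05) scale, with 3 points per group. C59A lies to the right of C59S for the 12 on the left and to the left for 10 of the 11 on the right, the exception being Acsm2.

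Genes listed as female-biased went the other way. Of 18 tested, 10 were lower in C59A and 1 higher, against 2.52% and 3.39% of all autosomal genes. The median was -1.70, and 8 of the 10 lower calls held on leaving out any library. Without C59S replicates 2 and 3 the list had 5 lower and 1 higher. Slc22a29, an organic anion transporter, was read at 2.6, 3.06 and 5.58 CPM in C59A and 60.1, 56.1 and 63.9 CPM in C59S and was lower (-3.98 ± 0.24, edgeR adjusted p = 9.64e-06). WT stood at 54, 65.6 and 50.7, at the level of C59S. Gsta4, a glutathione transferase that clears the lipid aldehyde 4-hydroxynonenal, was read at 20.9, 18.8 and 22.4 CPM in C59A and 90.7, 133 and 105 CPM in C59S, and the prolactin receptor gene Prlr at 21, 10.9 and 29 CPM in C59A and 166, 108 and 107 CPM in C59S. Prlr varied within C59A, but its highest C59A library was still well below the lowest in C59S. Atp13a4, a P5-type transport ATPase, had 0 reads in each C59A library and 30, 38 and 27 in C59S, which made it at least 27.4-fold lower in C59A at a floor of 3 reads over the group. Ugt1a2, a glucuronosyltransferase, was read at 0, 0 and 0.334 CPM in C59A and 9.4, 29.9 and 22.3 CPM in C59S, with all its C59A reads in replicate 3. Abcc3, a basolateral efflux pump for conjugates, was lower (-3.98 ± 0.76), a call lost without C59A replicate 1, 2 or 3 or C59S replicate 1 or 2 or WT replicate 2 (edgeR adjusted p = 0.0551 to 0.117). Acsm2, a medium-chain acyl-CoA synthetase of the same list, was higher in C59A (1642, 902 and 1728 CPM in C59A and 279, 491 and 431 CPM in C59S), while its neighbour on chromosome 7, Acsm1, was lower (115, 97.8 and 142 CPM in C59A and 275, 305 and 261 CPM in C59S).

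Enzymes and carriers that handle drugs, steroids and organic ions moved in both directions. These genes let the proximal tubule take up, oxidise, conjugate and secrete waste and medicines. Of 45 tested metabolizing enzymes 18 were higher and 2 lower (median 0.66), and of 36 organic ion carriers 9 were higher and 5 lower (median 0.12). Over all autosomal genes 3.39% were higher and 2.52% lower. Several of these enzymes and carriers stand on the sex-biased lists as well. Leaving out 1 library left 14 to 19 enzymes higher, and leaving out C59S replicates 2 and 3 left 10. Of the carriers, 7 of the 9 higher calls and 1 of the 5 lower calls held on leaving out any library. Without C59A replicate 1 or C59S replicate 2 only 1 carrier was lower, and the carriers' median turned to -0.013 without C59A replicate 2 and to -0.074 without C59S replicates 2 and 3. Genes not listed as sex-biased include Ugt2b37 and Ugt2b38, glucuronosyltransferases of one cluster on chromosome 5. The sex-biased lists may be incomplete, and sex and allele cannot be told apart in unlisted genes either. Ugt2b37 and Ugt2b38 were read at 57, 46.8 and 108 and 355, 306 and 654 CPM in C59A against 0.672, 0.902 and 1.08 and 31.7, 53.5 and 33.5 CPM in C59S. The pair is closely related, so a shared pool of reads is possible. Cyp2d9, a steroid 16-alpha-hydroxylase, was read at 349.5, 321 and 370.2 CPM in C59A and 19, 6.99 and 10.9 CPM in C59S. Ephx2, soluble epoxide hydrolase, which ends the action of epoxy fatty acids on vessels, was read at 374, 261 and 369 CPM in C59A and 69.4, 124 and 93 CPM in C59S, a log2 difference of 1.81 ± 0.22 that was 2.27 without C59S replicates 2 and 3 (edgeR adjusted p = 0.00641). Slco3a1, a prostaglandin and organic anion carrier, was higher by 1.66 ± 0.14 and Slco4c1, a basolateral carrier of uremic solutes, by 3.1 ± 0.32. Slc22a6, the main organic anion transporter OAT1, was read at 724, 506 and 918 CPM in C59A and 253, 378 and 298 CPM in C59S, a call lost without C59S replicate 3 (edgeR adjusted p = 0.0552). Going down, the efflux pump gene Abcb1b was lower (-1.18 ± 0.24), lost without C59A replicate 1 or C59S replicate 2 or 3 (edgeR adjusted p = 0.0512 to 0.0722), and so was Cyp2d26 (-1.79 ± 0.33), lost without C59A replicate 1 or C59S replicate 2 or 3 (edgeR adjusted p = 0.0532 to 0.0632).

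Coenzyme A genes had the highest share of calls among the metabolic lists shown. Coenzyme A carries acyl groups, is made from pantothenate, and its first and limiting step is pantothenate kinase. Of 15 tested genes of its synthesis and turnover 7 were higher in C59A and 0 lower, a share of 46.7% against 3.39% over all autosomal genes, with a median of 0.42. Pank1, the pantothenate kinase of kidney and liver, was read at 222, 221 and 233 CPM in C59A and 56.7, 51.7 and 47.7 CPM in C59S, with WT at 50, 49.2 and 45.7. The replicates of each group lay close together, and Pank1 had the third smallest p of all autosomal genes (2.12 ± 0.12, edgeR adjusted p = 2.83e-06). Without C59S replicates 2 and 3 it was 2.00. Nudt19, a peroxisomal coenzyme A diphosphatase that is also on the male-biased list, was read at 841, 979.9 and 1018 CPM in C59A and 446, 307 and 206 CPM in C59S. Slc25a42, the mitochondrial importer of coenzyme A, was read at 260.3, 236 and 212 CPM in C59A and 88.3, 124 and 85.6 CPM in C59S, and WT at 228, 173 and 165. For Slc25a42 the C59A libraries lay near WT and the C59S libraries below both, though C59S against WT did not pass (edgeR adjusted p = 0.121). Vnn1, pantetheinase, which recycles the vitamin, was higher by 1.43 ± 0.26, a call lost without C59A replicate 1 or 3 (edgeR adjusted p = 0.0539 to 0.0552). Coasy, the enzyme of the last step, was read at 112, 98.3 and 134 CPM in C59A and 69.9, 76.1 and 63.9 CPM in C59S, and was lost without C59A replicate 1 or 3 or C59S replicate 1, 2 or 3 (edgeR adjusted p = 0.0717 to 0.142). Ppcs (0.44 ± 0.11) and Nudt8 (1.35 ± 0.35) were the remaining calls and held in 3 and 1 of the 9 leave-one-out fits. Leaving out 1 library left 3 to 6 genes of the list called, the fewest without C59A replicate 1 or 3, and 4 passed with the adipocyte covariate.

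Fatty acid oxidation and other targets of PPARA, the fasting-activated nuclear receptor, were higher in number. Of 43 tested, 11 were higher and 1 lower, against 3.39% and 2.52% of all autosomal genes. The log2 fold change was positive in 35 of the 43, with a median of 0.55. Crot, which exports acyl groups shortened in peroxisomes as carnitine esters, was read at 292, 293 and 266 CPM in C59A and 85, 78.2 and 58.9 CPM in C59S. The libraries of each group lay close together, with a log2 difference of 1.94 ± 0.17 (edgeR adjusted p = 6.82e-05). Acot12, an acetyl-CoA thioesterase, was read at 142, 116 and 174 CPM in C59A and 27.8, 38 and 24.4 CPM in C59S, and WT at 40.1, 41.5 and 36.4. Eci2 (0.9 ± 0.14) and the peroxisome proliferation factor gene Pex11a (1.19 ± 0.18) were higher too, and the calls of Crot, Acot12, Eci2 and Pex11a held on leaving out any library. Of mitochondrial oxidation, Cpt2 (0.83 ± 0.18, lost without C59A replicate 1 or 3 or C59S replicate 1 or 3, edgeR adjusted p = 0.0549 to 0.102) and Acadvl (0.55 ± 0.12, lost without C59A replicate 1 or C59S replicate 1, 2 or 3, edgeR adjusted p = 0.0504 to 0.0987) were called. Fabp1, the fatty acid binding protein of liver, was lower (-1.28 ± 0.30), a call lost without C59A replicate 1, 2 or 3 or C59S replicate 2 or 3 (edgeR adjusted p = 0.0569 to 0.116). Leaving out 1 library left between 5 (without C59A replicate 1) and 15 (without C59A replicate 2) higher, without C59S replicates 2 and 3 there were 4, and with the adipocyte covariate 7. The median without C59S replicates 2 and 3 was 0.82.

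**Figure D4:**
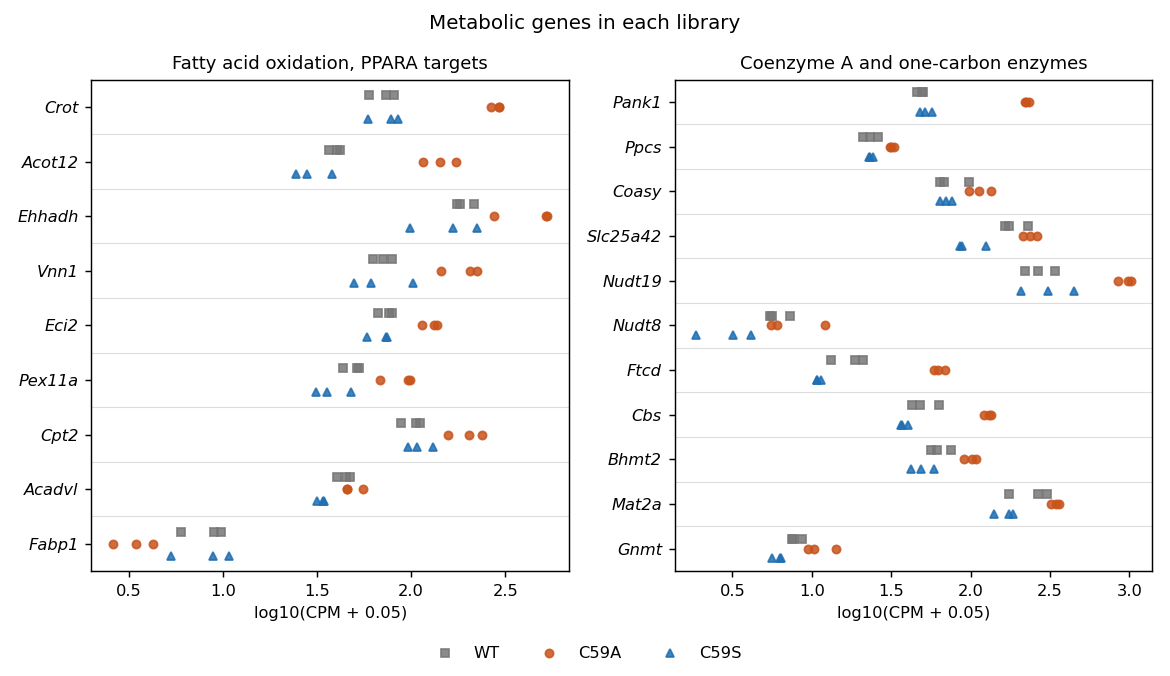
Levels of 9 genes of fatty acid oxidation and 11 of coenzyme A and one-carbon metabolism in each library, on a log10(CPM + 0.05) scale. C59A lies to the right of C59S in all but Fabp1, with the widest gaps in Pank1, Ftcd, Acot12 and Crot, and WT lies with C59A in some genes (Slc25a42) and with C59S in others (Pank1).

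Histidine and one-carbon enzymes contributed 8 higher and 0 lower of 28 tested, against 3.39% and 2.52% of all autosomal genes, with a median of 0.15. The log2 fold change was positive in 18 and negative in 10, the lowest being -2.51. By edgeR 9 were higher and 4 lower at an unadjusted p under 0.05. These pathways pass single carbons through folate and methionine. Ftcd, which hands the carbon of histidine to folate, was read at 68.7, 61.9 and 58.7 CPM in C59A and 11.3, 10.8 and 10.8 CPM in C59S, with WT at 21.1, 18.6 and 13.1, and was higher by 2.52 ± 0.17 (edgeR adjusted p = 9.64e-06). Cbs, cystathionine beta-synthase, which leads homocysteine to cysteine, was read at 129.9, 135 and 121 CPM in C59A and 36.9, 40.5 and 36.2 CPM in C59S, with WT at 42.7, 62.9 and 48. In both genes the 3 libraries of each knock-in group lay close together. Bhmt2, which methylates homocysteine, was higher by 1.01 ± 0.15. Mat2a, the S-adenosylmethionine synthetase, was read at 344, 321 and 357 CPM in C59A and 175, 184 and 139 CPM in C59S and 265, 302 and 175 CPM in WT, a call lost without C59S replicate 3 (edgeR adjusted p = 0.0653). Gnmt (0.9 ± 0.19), Shmt2 (0.64 ± 0.15) and Ahcy (0.65 ± 0.17) were called too and held in 6, 5 and 2 of the 9 leave-one-out fits. Without C59S replicates 2 and 3 the list had 2 calls, Ftcd and Cbs.

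Antioxidant genes under NRF2, a factor activated by electrophiles, were more often higher than lower in C59A, with 26 positive and 7 negative log2 fold changes. Of 33 tested 6 were higher and 2 lower, against 3.39% and 2.52% of all autosomal genes, with a median of 0.41. Hmox1, heme oxygenase, was read at 55.8, 30.2 and 62 CPM in C59A and 10.3, 12.4 and 14.6 CPM in C59S, with WT at 10.8, 11.3 and 10.4, so C59S lay at the WT level. Nqo1, a quinone reductase, was higher by 1.47 ± 0.15 and Me1, malic enzyme, by 1.28 ± 0.16, and these 3 calls held on leaving out any library. Ggt1, which splits extracellular glutathione, was higher by 0.76 ± 0.16, a call lost without C59A replicate 1 or 3 or C59S replicate 2 or 3 (edgeR adjusted p = 0.0593 to 0.0843). Gclm (0.96 ± 0.20, lost without C59A replicate 1 or 3 or C59S replicate 2 or 3, edgeR adjusted p = 0.056 to 0.0877) and Txnrd1 (0.73 ± 0.15, lost without C59A replicate 1 or 3 or C59S replicate 1, 2 or 3, edgeR adjusted p = 0.0513 to 0.0812) make glutathione and reduce thioredoxin. The glutathione transferases Gsta4 and Gsta1 (-2.3 ± 0.61) were the falls, and Gsta4 is also a female-biased gene. Gsta1 was lost without C59A replicate 1 or 2 or C59S replicate 2 or 3 or WT replicate 1 or 3 (edgeR adjusted p = 0.0517 to 0.16).

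Single genes of tubular transport and mineral balance added to the difference. Slc5a8, a sodium-coupled carrier of lactate and short-chain acids, was read at 96.6, 130.2 and 128 CPM in C59A and 33.7, 37.5 and 34 CPM in C59S, a difference of 1.75 ± 0.14 (edgeR adjusted p = 4.93e-05) that held on leaving out any library. Cyp27b1, the 1-alpha-hydroxylase that makes active vitamin D, was read at 18.8, 9.41 and 13.9 CPM in C59A and 3.47, 3.52 and 3.85 CPM in C59S, while WT lay at 11.5, 10.8 and 8.39. Here the C59A and WT libraries overlapped and the C59S libraries lay below both, though C59S against WT did not pass (edgeR adjusted p = 0.112). Gc, the vitamin D binding protein, was lower (-1.3 ± 0.20). Galns, a lysosomal sulfatase of keratan sulfate, was read at 77, 69.9 and 73.7 CPM in C59A and 21.2, 18.2 and 16.5 CPM in C59S. Lower in C59A were Slc39a5, a zinc transporter (34.1, 34.9 and 38.8 CPM in C59A and 95.2, 121 and 103 CPM in C59S), and Oat, ornithine aminotransferase (94.6, 104 and 119 CPM in C59A and 339, 314 and 275 CPM in C59S). Of 22 endocytosis genes, 18 of the thick ascending limb and 21 of principal cells, 0 were called by edgeR, with 4, 4 and 6 at an unadjusted p under 0.05, and DESeq2 called 0, 2 and 2. At the 5.9% called over all autosomal genes, lists of this size would hold few calls. Kcnk5, a potassium channel of proximal bicarbonate transport, was read at 69, 52.4 and 80.4 CPM in C59A and 41.2, 40.7 and 38.9 CPM in C59S, with WT at 71.5, 102 and 77.1, and its call was lost without C59A replicate 1 or 3 or C59S replicate 1, 2 or 3 (edgeR adjusted p = 0.0604 to 0.113).

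Some interferon response and antigen presentation genes were lower in C59A than in C59S. Type I interferons switch on many of them through promoter elements called ISRE, and NF-kB binds upstream of MHC class I genes and of B2m, the light chain of class I molecules. Of 37 tested interferon response genes 6 were lower and 0 higher, 36 had a negative log2 fold change, and the median was -0.74. Of 25 MHC and antigen processing genes 6 were lower and 0 higher, 24 were negative, and the median was -0.47. The share of autosomal genes called lower was 2.52%. The counts depend on the method: DESeq2 called 16 of the interferon and 8 of the MHC genes lower, and 787 of 16741 autosomal genes. By edgeR 27 and 11 genes of these lists had an unadjusted p under 0.05, all lower. To show what these promoters hold, the 250 bases before each RefSeq start (GRCm38.p6) were searched on both strands for the ISRE and for the NF-kB consensus, matches of either kind being allowed to overlap. Of 11488 tested autosomal genes with a promoter entry, 3.45% held an ISRE and 10.7% an NF-kB match. Of the 6 called interferon genes 5 had an entry and 4 of these held an ISRE, and of the 5 called MHC genes with an entry 3 held an NF-kB match and 1 an ISRE. The whole lists, called or not, held them in 15 of 25 interferon genes (ISRE, 60%) and 9 of 20 MHC genes (NF-kB, 45%). A match is a run of letters and not a measured binding site. The stretches that hold ISRE matches are, with the matches in capitals, for 4 of the called interferon genes those of Gbp3 at chr3:142559969-142560043 on the plus strand (1 of its 2 promoter entries), Isg15 at chr4:156200845-156200926 on the minus strand, Ifit1 at chr19:34640755-34640843 on the plus strand and Bst2 at chr8:71537557-71537632 on the minus strand.
Gbp3: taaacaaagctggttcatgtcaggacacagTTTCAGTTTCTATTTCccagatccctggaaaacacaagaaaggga
Isg15: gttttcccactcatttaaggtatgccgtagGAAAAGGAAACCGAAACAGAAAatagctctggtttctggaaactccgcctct
Ifit1: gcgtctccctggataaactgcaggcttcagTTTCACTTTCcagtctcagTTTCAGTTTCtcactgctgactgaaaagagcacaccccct
Bst2: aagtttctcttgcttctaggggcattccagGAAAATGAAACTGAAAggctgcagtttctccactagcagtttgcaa
In Isg15 and Bst2 the letters read along the gene, and in Gbp3 and Ifit1 they lie on the other strand. The stretches with an NF-kB match, here in capitals, are those of H2-Q6 at chr17:35424647-35424717, H2-Q7 at chr17:35438992-35439061 and B2m at chr2:122147531-122147600, all on the plus strand.
H2-Q6: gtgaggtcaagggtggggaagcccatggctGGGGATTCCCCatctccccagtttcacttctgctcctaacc
H2-Q7: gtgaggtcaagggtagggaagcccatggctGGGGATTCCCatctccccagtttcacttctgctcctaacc
B2m: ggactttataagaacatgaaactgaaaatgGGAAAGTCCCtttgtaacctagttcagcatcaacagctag
The B2m stretch also holds an ISRE match, which lies just before the capitals and is left in lower case. H2-Q6 and H2-Q7 are near copies here and are closely related genes, so their counts may share reads.

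Gbp3, a guanylate-binding protein of antimicrobial defence, was read at 8.51, 12.4 and 7.01 CPM in C59A and 77.2, 40.1 and 42.4 CPM in C59S, with WT at 35.8, 38.8 and 24.5. It was the only interferon gene whose call held without C59S replicates 2 and 3 (-3.05, edgeR adjusted p = 0.00157, against -2.52 ± 0.32 with all libraries), and it lies 6.87 Mb from Nfkb1. Isg15, a ubiquitin-like modifier, was read at 5.01, 5.84 and 3.62 CPM in C59A and 10, 11 and 13.2 CPM in C59S, with WT at 5.22, 5.03 and 6.29. Its call held on leaving out any library (-1.24 ± 0.22, edgeR adjusted p = 0.00775), though not without both C59S replicates (-1.05, 0.239). Irf7, the factor that amplifies the interferon response, was read at 23, 27.9 and 20.7 CPM in C59A and 40.1, 41.2 and 43.3 CPM in C59S, with WT at 24.4, 23.7 and 33.6, and was lost without C59A replicate 1 or 3 or C59S replicate 3 (edgeR adjusted p = 0.0623 to 0.0656). Ifit1, which blocks foreign RNA, was read at 6.76, 8.78 and 4.67 CPM in C59A and 14.3, 12.9 and 15 CPM in C59S, with WT at 6.74, 6.79 and 8.53, and was lost without C59A replicate 1 or 3 or C59S replicate 3 (edgeR adjusted p = 0.0538 to 0.0723). In Isg15, Irf7 and Ifit1 the C59A libraries overlapped WT and the C59S libraries lay above both, and C59S against WT did not pass (edgeR adjusted p = 0.121, 0.133 and 0.121). Bst2, tetherin (-0.97 ± 0.18), was lost without C59A replicate 3 or C59S replicate 3 (edgeR adjusted p = 0.0504 to 0.0588). Usp18, the enzyme that removes Isg15 (-1.19 ± 0.25), was lost without C59A replicate 1 or 3 or C59S replicate 2 or 3 (edgeR adjusted p = 0.0536 to 0.0819).

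Among the class I genes H2-Q6 was read at 61.9, 58.4 and 56.5 CPM in C59A and 102, 167 and 159.9 CPM in C59S and H2-Q7 at 36.1, 33.7 and 35.1 CPM in C59A and 51.6, 76.6 and 69.8 CPM in C59S, and both calls held on leaving out any library (-1.28 ± 0.20 and -0.92 ± 0.15). In both, C59S replicates 2 and 3 were the highest, and without them the differences were -0.79 and -0.56 (edgeR adjusted p = 0.197 and 0.285). B2m was read at 319.9, 404 and 387 CPM in C59A and 511, 649.7 and 659 CPM in C59S, with WT at 327, 378 and 462, and was lost without C59A replicate 1, 2 or 3 or C59S replicate 2 or 3 (edgeR adjusted p = 0.0506 to 0.153). The immunoproteasome subunits Psmb9 (-0.92 ± 0.24, lost without C59A replicate 1, 2 or 3 or C59S replicate 2 or 3, edgeR adjusted p = 0.0754 to 0.175) and Psmb10 (-0.84 ± 0.20, lost without C59A replicate 1 or 3 or C59S replicate 2 or 3, edgeR adjusted p = 0.0894 to 0.138) and the peptide pump subunit Tap2 (-0.57 ± 0.13, lost without C59A replicate 1 or 3 or C59S replicate 1 or 3, edgeR adjusted p = 0.0533 to 0.116) were the other calls. Over the MHC list the median was -0.10 without C59S replicates 2 and 3, with 0 calls, and 2 genes passed with the adipocyte covariate, whereas the interferon median was -0.64 with 1 call, and 6 passed with that covariate. Of 24 macrophage markers 1 was called, 4.17% against 5.9% of all autosomal genes, with a median of -0.22. It was Apoe (-0.99 ± 0.21), lost without C59A replicate 1 or 3 or C59S replicate 2 or 3 (edgeR adjusted p = 0.0571 to 0.0956). Without C59S replicates 2 and 3 the macrophage median was 0.22. The median of lymphocyte markers was -0.63 with 0 of 23 called by edgeR, 0 by DESeq2 and 4 at an unadjusted p under 0.05. The part of immune cell content in these values was not tested.

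**Figure D5:**
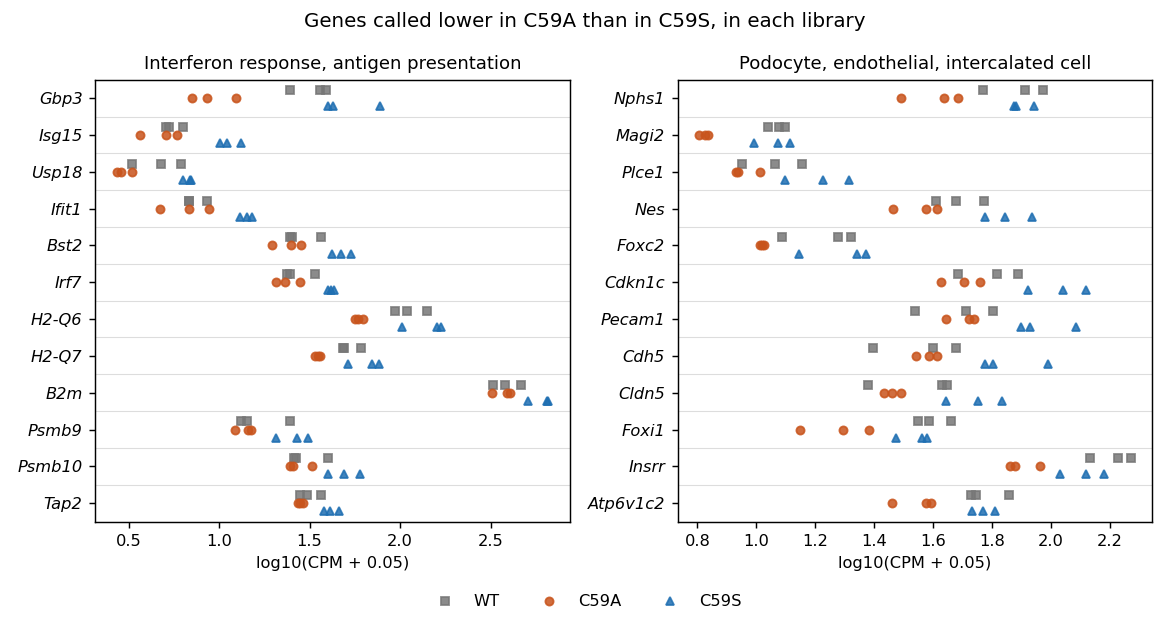
Levels of 12 interferon and antigen presentation genes and 12 podocyte, endothelial and intercalated cell genes in each library, on a log10(CPM + 0.05) scale. C59A lies below C59S throughout, and WT lies with C59A in Isg15, Ifit1, B2m, Pecam1 and Cdh5 and with C59S in Foxi1 and Atp6v1c2.

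Some markers of podocytes, endothelium and intercalated cells were lower in C59A. In whole kidney, fewer cells of a type and less RNA per cell cannot be told apart. Of 22 podocyte genes 6 were lower and 0 higher (median -0.83), of 25 endothelial genes 4 and 0 (median -0.70), and of 20 intercalated cell genes 4 and 0 (median -0.55), against 2.52% lower over all autosomal genes. Of 41 stroma and matrix genes edgeR called 1 lower and 0 higher, 2.44% and so near that background. The log2 fold change was nevertheless negative in 40 of the 41 (median -0.66). No call of these 4 lists held on leaving out every library in turn, and 0 held without C59S replicates 2 and 3, where the medians were -0.43, -0.62, -0.62 and -0.06. With the adipocyte covariate 4, 0, 2 and 1 genes were lower. The counts depend on the method here too: DESeq2 called 10, 8, 9 and 6 genes lower, and 787 of 16741 autosomal genes. By edgeR 16, 15, 11 and 13 genes were lower at an unadjusted p under 0.05, and 2, 0, 0 and 0 higher. Nphs1, nephrin of the slit diaphragm, was read at 48.2, 30.9 and 43.4 CPM in C59A and 75.7, 87.5 and 74.8 CPM in C59S, with WT at 81.7, 58.5 and 93.5, and was lost without C59A replicate 3 or C59S replicate 2 or 3 (edgeR adjusted p = 0.0535 to 0.0634). Nes (-1 ± 0.18, lost without C59S replicate 3, edgeR adjusted p = 0.053), Magi2 (-0.81 ± 0.16, lost without C59A replicate 1 or 3 or C59S replicate 2, edgeR adjusted p = 0.0524 to 0.0656) and the imprinted cell cycle inhibitor gene Cdkn1c (-1.11 ± 0.20, lost without C59A replicate 1 or C59S replicate 3, edgeR adjusted p = 0.0508 to 0.0555) were other podocyte calls. The summed podocyte level was 1621, 1292 and 1626 CPM in C59A and 1593, 2015 and 1874 CPM in C59S, so the groups overlapped.

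Pecam1, an adhesion protein of endothelium, was read at 54.7, 52.5 and 44 CPM in C59A and 79.2, 85 and 122 CPM in C59S, with WT at 51.5, 34.5 and 63.6, and was lost without C59A replicate 1, 2 or 3 or C59S replicate 2 or 3 or WT replicate 1 (edgeR adjusted p = 0.066 to 0.151). Cdh5, VE-cadherin, was read at 38.3, 41 and 34.7 CPM in C59A and 59.8, 63.4 and 97.6 CPM in C59S, and was lost without C59A replicate 1, 2 or 3 or C59S replicate 2 or 3 or WT replicate 1 (edgeR adjusted p = 0.0759 to 0.17). In both, C59S replicate 3 was the highest library and C59A lay among WT. Foxi1, the master regulator of intercalated cells, was read at 19.6, 14.1 and 24 CPM in C59A and 29.6, 37.9 and 36.4 CPM in C59S, with WT at 38.6, 35.4 and 45.8, and Atp6v1c2, a subunit of their proton pump, at 28.7, 37.5 and 38.9 CPM in C59A and 58.9, 53.6 and 64.4 CPM in C59S, with WT at 55.4, 53.4 and 71.8. Here C59S overlapped WT and C59A lay below both. Foxi1 was lost without C59A replicate 1 or C59S replicate 2 or 3 (edgeR adjusted p = 0.0824 to 0.0939) and Atp6v1c2 without C59A replicate 1 or C59S replicate 3 (edgeR adjusted p = 0.0803 to 0.0822). Lum, the matrix proteoglycan lumican, was read at 1.09, 1.98 and 1.67 CPM in C59A and 2.76, 6.81 and 6.34 CPM in C59S, highest in the 2 libraries rich in fat transcripts, and was lost without C59A replicate 1 or 3 or C59S replicate 2 or 3 (edgeR adjusted p = 0.0746 to 0.0955). Of 14 neutrophil genes 7 had too few reads to be tested. Of the 7 tested 2 were higher and 0 lower, against 3.39% higher over all autosomal genes, with a median of 1.57. None passed without C59A replicate 1, C59S replicate 1 or C59S replicate 2. Levels were low, the whole list summing to 19.7, 18.4 and 16.7 CPM in C59A and 5.97, 6.77 and 11.8 CPM in C59S. Csf3r, the receptor of the granulocyte growth factor, was higher by 1.02 ± 0.25, a call lost without C59A replicate 1 or 2 or C59S replicate 1, 2 or 3 or WT replicate 1 (edgeR adjusted p = 0.0512 to 0.149). S100a9, a calcium-binding protein of neutrophils, was read at 3.92, 3.4 and 4.34 CPM in C59A and 0.56, 0.632 and 1.89 CPM in C59S, a call lost without C59A replicate 1 or 3 or C59S replicate 1 or 2 (edgeR adjusted p = 0.0691 to 0.0982).

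Shares of calls in the NF-kB system itself lay near that of all autosomal genes. Nfkb1 was read at 39.7, 31 and 29.2 CPM in C59A and 39.7, 37.5 and 36.9 CPM in C59S, with overlapping groups and a difference of -0.19 ± 0.13 (edgeR adjusted p = 0.416). Counts per gene do not show which codon was read. Of 28 tested members of the family and its IKK and TRAF regulators 1 was higher and 0 lower, 3.57% against 5.9% of all autosomal genes, and the median was -0.0085. That gene was Chuk, the kinase IKK-alpha, read at 111, 89.2 and 112 CPM in C59A and 57.8, 63 and 57.1 CPM in C59S, with WT at 83.8, 89.6 and 61.6, and lost without C59A replicate 1 or C59S replicate 3 (edgeR adjusted p = 0.0562 to 0.0597). Rela, the usual partner of p50, differed by -0.16 ± 0.12 and Nfkbia, the feedback inhibitor IkB-alpha, by -0.28 ± 0.15 (edgeR adjusted p = 0.476 and 0.306). Of 26 tested inflammatory target genes 1 was lower and 0 higher, 3.85% called against 5.9% of all autosomal genes, with a median of -0.20. The lower gene was Nos2, the inducible nitric oxide synthase, read at 0.423, 0.17 and 0.524 CPM in C59A and 1.38, 0.857 and 2.5 CPM in C59S. Its call was lost without C59A replicate 1, 2 or 3 or C59S replicate 1 or 3 or WT replicate 1 (edgeR adjusted p = 0.0657 to 0.174). Icam1 (0.17 ± 0.20), Vcam1 (-0.72 ± 0.25), Ccl2 (-0.12 ± 0.66) and Tnfaip3 (0.04 ± 0.26) did not pass. DESeq2 called 2 family members and 1 target.

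The share of calls among genes near the knock-in site on chromosome 3 varied with the distance taken. Within 10 Mb of Nfkb1 13 of 111 tested genes were called, 11.7% against 5.9% over the autosomes, 8 of them higher. Within 2 Mb it was 1 of 19 (5.26%) and within 30 Mb 22 of 298 (7.38%). Adh1, alcohol dehydrogenase of ethanol and retinol, 2.57 Mb away, was read at 643, 527 and 929 CPM in C59A and 97, 138 and 140.5 CPM in C59S, with WT at 111, 108 and 147. Its neighbours Adh7 (3.22 ± 0.70, lost without C59A replicate 1 or 3 or C59S replicate 1 or 2 or WT replicate 1 or 2, edgeR adjusted p = 0.0512 to 0.12) and Adh5 (0.71 ± 0.16, lost without C59A replicate 3 or C59S replicate 1 or 3, edgeR adjusted p = 0.0773 to 0.117) and the antisense gene 0610031O16Rik (5.84 ± 0.62) were higher as well, and with no strand setting stated the antisense reads may be those of Adh7, which it overlaps. Neurog2, a proneural transcription factor, had 90, 108 and 74 reads in C59A and 0 in each C59S library, at least 105-fold higher in C59A at a floor of 3 reads over the group. WT had a single read of Neurog2. Elovl6, the elongase of palmitate, was lower (7.12, 6.69 and 8.87 CPM in C59A and 44.7, 28.8 and 37.4 CPM in C59S), and Ugt8a, which makes galactosylceramide, higher (68, 44.7 and 89.1 CPM in C59A and 9.18, 2.93 and 6.41 CPM in C59S). The calls of Adh1, Neurog2, Elovl6, Ugt8a and 0610031O16Rik held on leaving out any library.

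Other large differences belonged to none of the groups above. The antisense gene Gm15441 on chromosome 3 had the smallest p of all autosomal genes and was read at 87.1, 92.6 and 50.8 CPM in C59A and 2.65, 2.26 and 2.23 CPM in C59S, with WT at 2.23, 1.96 and 2 (5 ± 0.24, edgeR adjusted p = 9.02e-07). It overlaps Txnip, an inhibitor of thioredoxin, which did not pass (-0.61 ± 0.20, edgeR adjusted p = 0.0932), and reads of the pair cannot be told apart without the strand. Mpped1, a metallophosphoesterase gene best known from brain, had 97, 233 and 112 reads in C59A and 1 in C59S, a ratio of 511 with a 95% counting interval of 91.2 to 20224 that covers counting error only. Timd2, a ferritin receptor, was read at 29.4, 27 and 31.7 CPM in C59A and 1.16, 2.21 and 1.69 CPM in C59S, and Mogat1, monoacylglycerol acyltransferase, at 122, 99.1 and 131 CPM in C59A and 10.5, 31.7 and 20.9 CPM in C59S. Both held on leaving out any library and without C59S replicates 2 and 3 (4.66 and 3.48). Igf2, the imprinted growth factor, was read at 3.02, 3.12 and 3.34 CPM in C59A and 237, 51.2 and 107 CPM in C59S, with WT at 49, 71.2 and 5.63, and it stopped passing without C59A replicate 1, 2 or 3 or C59S replicate 1, 2 or 3 or WT replicate 1 or 2 (edgeR adjusted p = 0.0516 to 0.144). Slc17a2, a phosphate transporter relative, was read at 0.543, 0.227 and 0.0477 CPM in C59A and 34.6, 12.3 and 10.9 CPM in C59S, with 19.7, 17.3 and 2.91 in WT, and was lost without C59A replicate 1, 2 or 3 (edgeR adjusted p = 0.0714 to 0.101). Myh1, a myosin of skeletal muscle, had 0, 2 and 0 reads in C59A and 69, 50 and 30 in C59S. Its call was lost without C59A replicate 1 or 3 (edgeR adjusted p = 0.0737 to 0.0747).

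Of the most abundant fat transcripts, Cfd, Car3 and Fabp4 overlapped between the groups, and Lpl did not. Lpl was read at 731, 750 and 926 CPM in C59A and 720, 394 and 475 CPM in C59S, higher in C59A but not called. Of 25 tested adipocyte genes 2 were lower in C59A, 8% against 2.52% of all autosomal genes, and 0 higher, and the median of -0.86 became 0.35 without C59S replicates 2 and 3, with 0 calls. Cfd was read at 25.9, 0.227 and 68.6 CPM in C59A and 2.24, 158 and 429 CPM in C59S and Car3, a carbonic anhydrase of fat, at 34.7, 5.27 and 82.8 CPM in C59A and 4.92, 207 and 243 CPM in C59S. C59S replicate 1 lay below C59A replicates 1 and 3 in both, and the log2 differences of -2.63 and -1.88 did not pass (edgeR adjusted p = 0.448 and 0.468). Fabp4, the adipocyte fatty acid binding protein, was read at 123, 160.4 and 137 CPM in C59A and 149, 339 and 650.4 CPM in C59S. The 2 calls were Cebpa (-0.86 ± 0.22, lost without C59A replicate 1, 2 or 3 or C59S replicate 2 or 3 or WT replicate 1 or 3, edgeR adjusted p = 0.0538 to 0.163) and the lipid droplet lectin gene Lgals12 (-2.3 ± 0.50, lost without C59A replicate 1 or 2 or C59S replicate 2 or 3, edgeR adjusted p = 0.0576 to 0.0867). Of 75 ribosomal protein genes 0 were called by edgeR and by DESeq2, with 2 at an unadjusted p under 0.05 and a median of -0.10. Of 74 nuclear genes of the respiratory chain 1 was called, with a median of 0.06, against 5.9% of all autosomal genes. It was cytochrome c (Cycs, 0.79 ± 0.18), lost without C59A replicate 1 or 3 or C59S replicate 1, 2 or 3 (edgeR adjusted p = 0.0532 to 0.106).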

How the data were processed

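Total RNA of whole kidney from 9 samples was sequenced, per the labels. Per the submitters' processing notes, base calling used CASAVA 1.8 and the tools included fastp, HISAT2 2.0.5, featureCounts 1.5.0-p3 and DESeq2 1.20.0, with build GRCm38. The deposited table holds read counts per gene, and a second deposited table holds FPKM values, which per library equal counts over gene length times a constant. The strand setting of the counting was not given in the sources used here.

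Counts were fitted with edgeR 4.0.16 (R 4.3.3; filterByExpr, TMM, robust quasi-likelihood test) over all 9 libraries, so that the groups share an estimate of the spread, with Benjamini-Hochberg adjustment over all 17114 genes tested on all chromosomes, of which the 16540 on chromosomes 1 to 19 are reported. CPM uses TMM-scaled totals. The FPKM values were tested with limma 3.58.1 on log2(FPKM + 1), and DESeq2 1.42.0 was an alternative. A read floor of 3 counts and a 95% interval cover counting error only. The procedure was tested on simulated data. Other normalizations, filters, covariates and left-out libraries were tried.

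The gene lists and the comparison were chosen with earlier results of these data known. Named genes were the 15 largest changes and the 10 smallest p per direction, up to 5 calls per list, up to 6 within 10 Mb of Nfkb1, the most abundant fat genes, and up to 5 calls per direction without C59S replicates 2 and 3. Other called list members, and uncalled genes given as examples, were named after their values were seen. Promoters came from RefSeq (GRCm38.p6), with an entry for 69.5% of the tested autosomal genes.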

Additional observations from a re-analysis of the deposited data

Results flagged for a closer look

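Y-linked reads appeared in C59S libraries, outside the autosomal genes compared, above the limit of 3 reads. C59S replicate 3 had 12 reads of Ddx3y, 17 of Eif2s3y and 8 of Uty, and C59S replicate 1 had 4 of Eif2s3y. The C59A libraries had 763 to 971 reads of Ddx3y and 1371 to 1720 of Eif2s3y. All genes of chromosome Y together had 2215, 1280 and 1667 reads in C59S. The same total was 3143, 3329 and 3946 in C59A and 145, 95 and 1157 in WT. In C59S nearly all of these reads lay outside the genes just named. The source of the Y-linked reads in C59S and WT was not tested.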

How the results depend on the processing

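The number of autosomal calls, 976, changed by more than 1.5 times under several settings. It was 643 with library totals alone, 1672 with DESeq2, 1703 with limma voom, 637 with limma on log2(FPKM + 1) and 264 without its filter, 497 with the mitochondrial share and 545 with the adipocyte list as a covariate, and 117 without C59S replicates 2 and 3. It was 243 at an adjusted p under 0.01, 1758 under 0.1 and 430 with a 2-fold minimum. Leaving out 1 library at a time gave 304 to 1262. With a replicate block by title number it was 318 over 6 libraries and 934 over 9, and with a replicate block by the number in the sample name 109. Same-numbered C59A and C59S libraries did not deviate together (correlations of -0.10, -0.33 and 0.06), so the numbers were not taken as pairs. Among the named genes, differences that changed sign were those of fat genes, none of them called: Cfd (3.83) and Car3 (3.07) without C59S replicates 2 and 3, Gpd1, which was -0.043 without C59A replicate 3 and ranged from there to 0.37 over the left-out libraries, and Pnpla2, which was 0.35 without C59S replicates 2 and 3, 0.036 and 0.11 with the mitochondrial and adipocyte covariates, and -0.24 to 0.12 over the left-out libraries (0.12 without C59S replicate 3, 0.093 without C59A replicate 1). Of the list medians given, those of macrophage markers (0.22), organic ion carriers (-0.074) and fat genes (0.35) changed sign without C59S replicates 2 and 3. The carriers' also did without C59A replicate 2 (-0.013), and that of the NF-kB family, near 0, with DESeq2. The cause was not tested. The calls near Nfkb1 went from 13 within 10 Mb to 22 within 30 Mb. Of 135 named calls 64 held on leaving out any library. Levels under 3 reads limit what can be seen to about 0.112 to 0.202 CPM.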
